A study of Mus musculus with 4 samples.

Results

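The 6 genes described here encode G-protein-coupled receptors through which hormones, nerves and fatty acids act on insulin secretion. They are Glp1r, Gipr, Gcgr, Ffar1, Adra2a and Chrm3. The receptors were chosen by symbol, as 6 of the 32285 genes of the deposited matrices. The libraries were single-cell RNA-seq of pancreatic islets from male mice, either wild type at Pax4 (WT) or homozygous (HH) for an arginine-to-histidine substitution knocked into the endogenous Pax4 gene, which encodes a transcription factor of islet development. WT SCD and HH SCD were libraries from mice aged 12 weeks on standard chow diet. WT HFD and HH HFD came from mice aged 16 weeks after 4 weeks on a high-fat diet, so that diet and age cannot be told apart. The mice were WT and HH littermates on a C57BL6/N background, and islets of several mice were pooled into each library. Each of the 4 groups was 1 library, which leaves no replicate to check a difference, and all intervals below are 95% intervals for counting error alone.

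Beta cells secrete insulin when glucose metabolism closes their potassium channels and calcium enters, and the receptors described here set how strongly a given glucose level is answered. The GLP-1 receptor (Glp1r), the GIP receptor (Gipr) and the glucagon receptor (Gcgr) are class B receptors that act through Gs and cyclic AMP to amplify secretion. The free fatty acid receptor FFAR1 and the M3 muscarinic receptor (Chrm3) act mainly through Gq and phospholipase C, whereas the alpha-2A adrenergic receptor (Adra2a) acts through Gi and Go and restrains secretion. Incretin drugs for type 2 diabetes act on the first pair.

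In the GRCm38 assembly with GENCODE M21 annotation, all 6 are protein-coding genes on 5 chromosomes. Glp1r (ENSMUSG00000024027) spans chr17:30901817-30940791 on the forward strand and Gipr (ENSMUSG00000030406) chr7:19156061-19166127 on the reverse strand. Gcgr (ENSMUSG00000025127) spans chr11:120530699-120538986 on the forward strand, and Ffar1 (ENSMUSG00000044453) chr7:30857390-30861564 on the reverse strand. Adra2a (ENSMUSG00000033717) spans chr19:54044151-54048982 on the forward strand, and Chrm3 (ENSMUSG00000046159), the longest at 485 kb, chr13:9875486-10360847 on the reverse strand. Chrm3 overlaps 4 short transcript models on its own strand, so its counts are less certain than those of the other 5 receptors. Glp1r, Gcgr and Chrm3 also overlap 2, 1 and 2 models on the opposite strand.

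Promoter sequences (RefSeq, GRCm38.p6) were matched for 5 of the 6 receptors, all but Gipr. Those of Glp1r and Ffar1 are shown because these 2 receptors had opposite patterns outside the insulin cells, Glp1r being found in somatostatin cells and Ffar1 in glucagon cells. The Glp1r stretch is chr17:30901617-30901816 on the forward strand, with matches to the GC box GGGCGG, read on both strands, in capitals. The Ffar1 stretch is chr7:30861565-30861720 on the reverse strand, with its E-box CANNTG in capitals.
Glp1r: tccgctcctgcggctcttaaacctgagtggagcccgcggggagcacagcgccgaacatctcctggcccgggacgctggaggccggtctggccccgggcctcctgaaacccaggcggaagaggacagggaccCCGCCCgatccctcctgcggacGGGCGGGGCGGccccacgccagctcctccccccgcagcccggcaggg
Ffar1: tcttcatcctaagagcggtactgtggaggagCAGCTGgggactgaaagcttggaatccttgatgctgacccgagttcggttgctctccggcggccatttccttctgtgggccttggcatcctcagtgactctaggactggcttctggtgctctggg
The 200 bases before the Glp1r gene held 3 GC box matches, 2 of which overlap, and 75% G and C. The 156 bases before Ffar1 held 1 E-box match, no GC box and 57.1% G and C. A GC box was present in 24.6% of 32851 mouse promoters over 200 bases, and an E-box in 50.6% over 156 bases. The homeodomain core TAAT and the cyclic AMP response element core TGACG, read on both strands, had no match in either stretch. TAAT was present in 50.1% of promoters over 200 bases and TGACG in 12.7%. These matches describe letters and not binding.

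The 4 libraries held 22218 barcodes and 340006331 UMIs, of which 12404 cells were kept after filters on depth, genes, mitochondrial UMIs and doublets. WT HFD kept 37.7% of its barcodes and the other 3 libraries 59.4 to 66.1%. Libraries shared 6 to 11 barcodes in each pair, of which 0 to 4 were kept in both. Pax4 had 0 UMIs in every library, and gave no check of the genotype labels. Cells were classed by the hormone with the most UMIs, and 11272 cells fell in the insulin (Ins1 and Ins2), glucagon (Gcg), somatostatin (Sst) and pancreatic polypeptide (Ppy, here PP) classes. The top hormone lay within 1.5-fold of the 5% minimum in 24 of these cells, and in 96 of all kept cells. In what follows, 4 values in a row are in the order WT SCD, HH SCD, WT HFD, HH HFD. Insulin cells numbered 2022, 1991, 1139 and 2870. All 9 beta cell markers were above 10 CPM (UMIs scaled to a class total of 1000000) in the insulin cells of every library, whereas the 8 endothelial markers summed to 5.89 to 12.6 CPM there. The 1597 glucagon, 1114 somatostatin and 539 PP cells had 6 of 6, 4 of 4 and 4 of 4 of their own markers above 10 CPM in every library. The 4 PP markers also summed to 56593 to 65245 CPM in somatostatin cells.

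The receptors were mostly found in insulin cells, and Glp1r stood well above the others. Of the UMIs of each receptor in kept cells, insulin cells held 98.2% for Gcgr, 98.0% for Glp1r, 96.1% for Adra2a, 95.6% for Ffar1, 92.3% for Chrm3 and 91.8% for Gipr. The share of all genes' UMIs in insulin cells was 81.4%. Because the 3′ kit tags a single end of each transcript, CPM was compared between genes without division by length. The order in insulin cells was the same in all 4 libraries, Glp1r first, then Adra2a, Ffar1, Gipr, Chrm3 and Gcgr. Within each library no neighbours in this order had overlapping counting intervals. Across libraries the ranges of Adra2a (62.0 to 95.4 CPM) and Ffar1 (49.5 to 62.8 CPM) overlapped, as did those of Gipr (20.2 to 33.7 CPM) and Chrm3 (13.8 to 20.3 CPM).

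**Figure D1:**
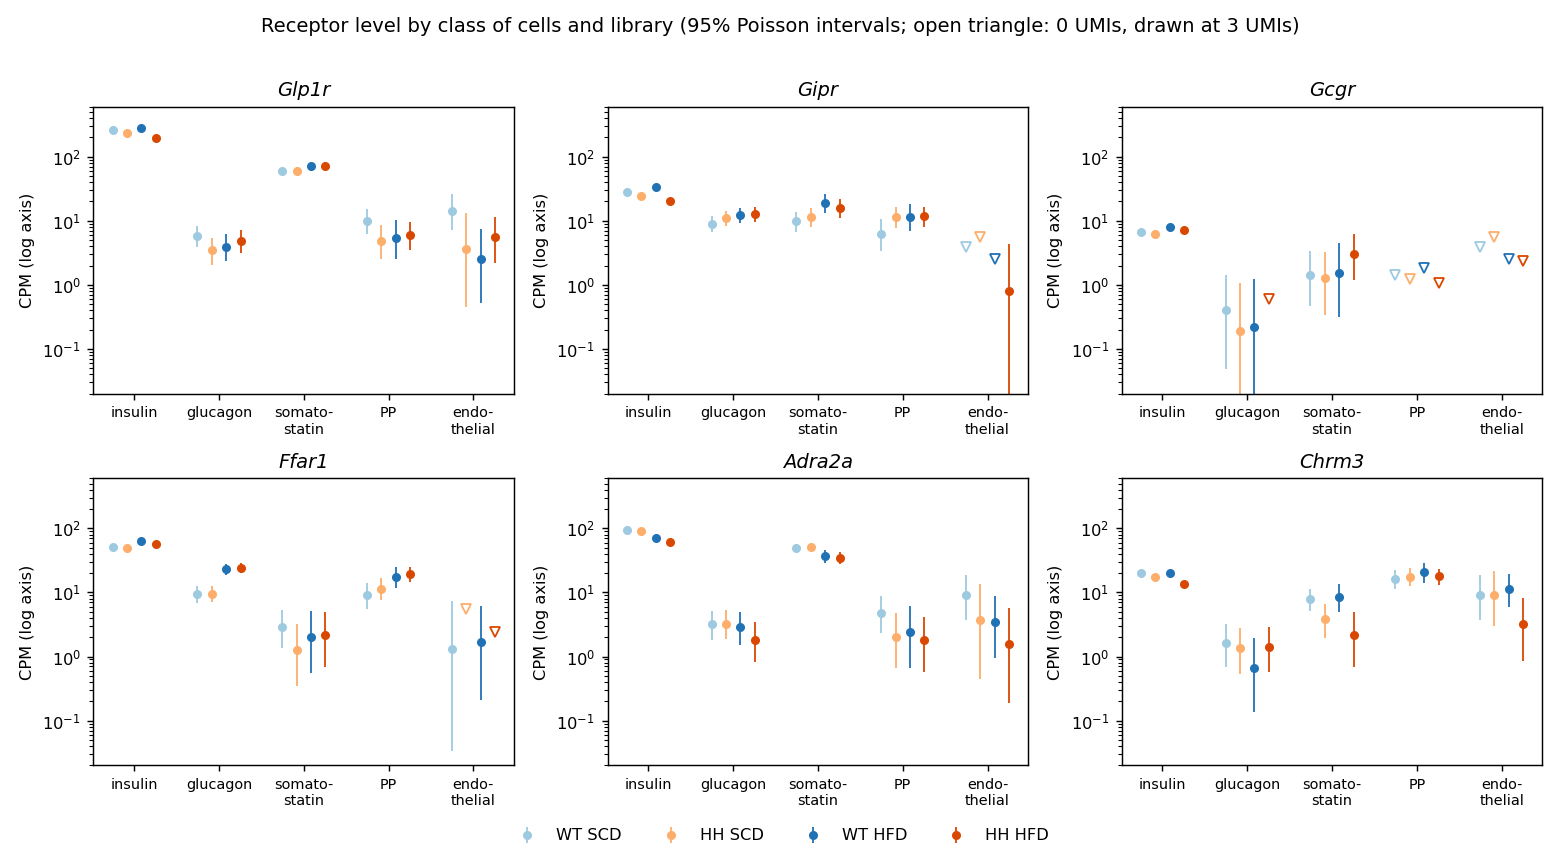
Level of each receptor in CPM (log axis) in 5 classes of cells; each point is 1 library with its 95% Poisson interval, and an open triangle marks 0 UMIs, drawn at the level of 3 UMIs. Glp1r sat between 196 and 276 in insulin cells and between 59.9 and 71.7 in somatostatin cells, while Ffar1 was higher in glucagon than in somatostatin cells and Chrm3 was about as high in PP as in insulin cells.

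Glp1r, the receptor for the gut hormone GLP-1, was a transcript of insulin and somatostatin cells. Its level in insulin cells was 263, 232, 276 and 196 CPM, from 9405 to 14353 UMIs. In somatostatin cells it was 60.6, 59.9, 70.8 and 71.7 CPM, from 140 to 211 UMIs. HH HFD was thus the lowest library for insulin cells and not for somatostatin cells. In glucagon cells Glp1r reached only 3.46 to 5.81 CPM, which was 10.4 to 17.9-fold below somatostatin cells.

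The share of these low counts that insulin cell RNA could carry was estimated from the insulin UMIs in each class. If all insulin transcripts in another class came with the RNA of insulin cells, glucagon cells of the 4 libraries would hold 98.8 Glp1r UMIs, and 89 were found (ratio 0.90, interval 0.72 to 1.11). In endothelial cells 23 were found against 22.1 expected. The counts of Glp1r in glucagon and endothelial cells were therefore at the level of carried RNA and are read here as background. Somatostatin cells held 709 against 71.0 expected, a ratio of 9.99 (9.27 to 10.8). PP cells were near background, with 59 against 40.7 (ratio 1.45, 1.10 to 1.87).

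Gipr, the receptor of the other incretin, GIP, was spread over all hormone classes. Insulin cells held 27.8, 24.6, 33.7 and 20.2 CPM. Glucagon cells held 9.02 CPM in WT SCD and 11.0 to 12.7 in the others, somatostatin cells 9.77, 11.4, 18.7 and 15.8, and PP cells 6.22, 11.5, 11.5 and 11.7. The smallest gap between insulin and other hormone cells was that of HH HFD. Carried RNA would give 10.7 Gipr UMIs in glucagon cells, 7.65 in somatostatin cells and 4.37 in PP cells, whereas 220, 144 and 93 were counted. Endothelial cells had 1 Gipr UMI in all 4 libraries.

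Gcgr, the receptor for glucagon itself, was the lowest of the 6. Its level in insulin cells was 6.64, 6.31, 8.03 and 7.22 CPM, under the 10 CPM required for a fold call. Somatostatin cells had 5, 4, 3 and 7 UMIs, in all 19, which was 9.50 times the number from carried RNA (5.72 to 14.8). Glucagon cells had 2, 1, 1 and 0 UMIs, in all 4 against 2.83 expected, so Gcgr was not detectable above carried RNA in the cells that make its ligand. PP cells had none.

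Ffar1, which answers long-chain fatty acids, had the pattern opposite to Glp1r outside the insulin cells. Insulin cells held 51.6, 49.5, 62.8 and 56.2 CPM. Glucagon cells held 9.42 CPM in both SCD libraries, then 22.9 in WT HFD and 24.1 in HH HFD. PP cells held 9.09, 11.5, 17.5 and 19.2 CPM. Both HFD libraries were above both SCD libraries in these 3 classes. Somatostatin cells had 10, 4, 4 and 5 UMIs, in all 23 against 15.6 from carried RNA (ratio 1.47, 0.93 to 2.21), whereas glucagon cells had 320 against 22.1.

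Chrm3, the receptor for acetylcholine from parasympathetic nerves, was about as abundant in PP as in insulin cells. Its level was 20.3, 17.6, 20.3 and 13.8 CPM in insulin cells and 16.3, 17.6, 20.6 and 17.8 in PP cells. The log2 ratio of insulin to PP cells lay between -0.37 and 0.32, with every interval spanning 0. With hormone and mitochondrial genes left out of the total, insulin cells were the higher in all 4 libraries, at 39.5 to 57.3 CPM against 36.4 to 42.2 in PP cells. PP cells held 161 Chrm3 UMIs against 3.04 from carried RNA. Glucagon cells held 25 UMIs in 1597 cells. Endothelial cells had 29 against 1.64, and 51 ductal cells had 15 against 0.19.

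Adra2a, through which noradrenaline inhibits secretion, was shared by insulin and somatostatin cells. Insulin cells held 95.4, 91.8, 69.6 and 62.0 CPM. Somatostatin cells held 49.1, 51.1, 36.4 and 34.6 CPM. In both classes the 2 HFD libraries lay below the 2 SCD libraries. Glucagon cells had 1.81 to 3.27 CPM (55 UMIs against 33.9 from carried RNA). Stromal cells, a class of 185 cells, held 45 Adra2a UMIs against 2.46.

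**Figure D2:**
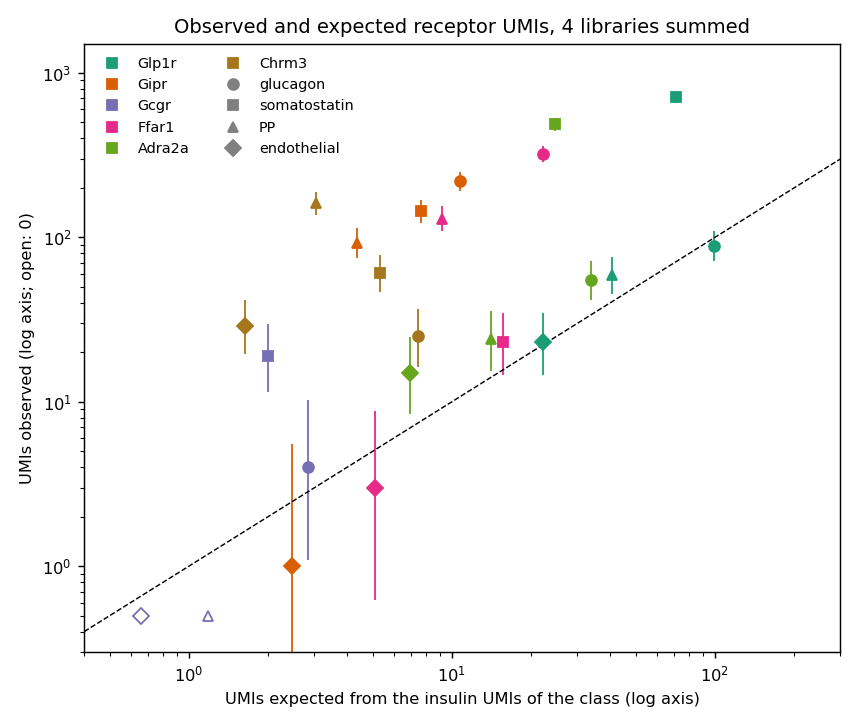
UMIs of each receptor observed in 4 classes of non-insulin cells, summed over the 4 libraries with 95% Poisson intervals, against the UMIs expected if all insulin transcripts there had come with RNA of insulin cells; both axes are logarithmic, the dashed line marks equality and open symbols have 0 UMIs. Glp1r lay on the line in glucagon cells (89 against 98.8) and far above it in somatostatin cells (709 against 71.0), while Ffar1 did the reverse (320 against 22.1 and 23 against 15.6).

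Set against other genes, the preference of the receptors for insulin cells was strong. At least 2-fold higher levels in insulin than glucagon cells were seen for 6 receptors in WT SCD, HH SCD and WT HFD and for 5 in HH HFD. These counts take in Gcgr in every library and Chrm3 in HH SCD and HH HFD, although their mean over both classes was under 10 CPM, and in HH HFD the fold of Gcgr was taken against the floor of 3 UMIs, since glucagon cells had none. Among all genes at 10 CPM or more, 3.75%, 3.65%, 4.15% and 3.46% were that much higher. Glp1r was 45.3, 67.0, 69.7 and 40.7-fold higher and Adra2a 29.8, 28.1, 24.4 and 34.3-fold higher. Carried RNA was not subtracted from the glucagon cells, where it could account for all of the Glp1r UMIs and most of those of Adra2a, so these folds do not measure how much lower the cells' own level was. Gipr differed 3.08, 2.25, 2.79 and 1.59-fold, the smallest difference in all but WT HFD, where Ffar1 was at 2.75-fold. In HH HFD Gipr was the receptor that missed the 2-fold limit. With hormone and mitochondrial genes left out of the total, Gipr passed that limit there, at 57.9 CPM in insulin and 21.9 in glucagon cells.

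Against somatostatin cells the receptors split. Ffar1 had log2 ratios of 4.17, 5.29, 4.96 and 4.72 in favour of insulin cells, against 4 to 10 UMIs that were not clear of carried RNA. Glp1r was 4.34, 3.87, 3.89 and 2.74-fold higher there. Adra2a was 1.94, 1.80, 1.91 and 1.79-fold higher in insulin cells, short of 2-fold in 4 of 4 libraries, although its level outside hormone and mitochondrial genes was 178 to 263 CPM there against 51.4 to 76.2 in somatostatin cells. Among all genes 2.52%, 2.45%, 2.26% and 1.95% were at least 2-fold higher in insulin than somatostatin cells. The same limit against PP cells was passed by 6.97%, 5.89%, 5.02% and 4.37% of genes. Of the receptors with UMIs in both classes, Glp1r (26.2 to 50.6-fold), Adra2a (19.9 to 44.9-fold) and Ffar1 (2.92 to 5.68-fold) passed it in every library, again with carried RNA left in.

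The first comparison asked whether homozygosity for the Pax4 substitution went with other receptor levels in insulin cells on chow. The differences were small. In SCD, Glp1r was 263 and 232 CPM in WT and HH (log2 ratio of HH over WT -0.18, -0.22 to -0.15), Gipr 27.8 and 24.6 (-0.17, -0.28 to -0.06) and Chrm3 20.3 and 17.6 (-0.21, -0.33 to -0.08). Ffar1, Adra2a and Gcgr had log2 ratios of -0.06, -0.06 and -0.07 with intervals that reached 0 or above. A receptor or gene was called when it was at least 20% lower or 25% higher in HH, the same ratio in either direction. None of the 5 receptors at 10 CPM or more was called lower, a difference seen for 2.09% of 6063 genes. With cells thinned to 3000 UMIs, Gipr was at -0.43 (-0.77 to -0.10) and was called lower, as were 11.3% of all genes at that depth. Glp1r was then at -0.07 (-0.17 to 0.04) and Chrm3 at 0.00 (-0.39 to 0.39). Thinned to 10000 UMIs instead, the mean of Gipr was 0.298 UMIs per cell in WT and 0.275 in HH. The median log2 ratio was -0.12 over the 6 receptors and -0.08 over all genes.

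In HFD the 6 receptors lay lower in HH, and 3 of them by more than most genes. Gipr was 33.7 CPM in WT HFD and 20.2 in HH HFD, a 1.67-fold difference (log2 ratio -0.74, -0.85 to -0.63), and only 0.696% of genes had a lower ratio. Chrm3 was 20.3 and 13.8 CPM, 1.48-fold lower (-0.56, -0.71 to -0.42), with 1.88% of genes lower still. Glp1r was 276 and 196 CPM, 1.40-fold lower (-0.49, -0.53 to -0.45), with 3.07% of genes lower still. The study named Glp1r as reduced in a beta cell cluster of these same libraries, so this value is not independent of that choice.

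The other 3 receptors stayed close to the shift of all genes in HFD. Adra2a had a log2 ratio of -0.17 (-0.24 to -0.09), Ffar1 of -0.16 (-0.24 to -0.08) and Gcgr of -0.15 (-0.37 to 0.06), against a median of -0.13 over 5894 genes. Thus 3 of the 5 receptors at 10 CPM or more were called lower, where 13.2% of all genes were. The median of the 6 was -0.33, and the medians of their interval bounds were -0.45 and -0.26. The difference between the diets in these ratios has no replicate behind it and was not tested.

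The scaling of the libraries moved these values. With median-of-ratios size factors the all-gene median in HFD moved from -0.13 to -0.01, and the share of lower calls among all calls went from 80.4% to 35.6%. Glp1r then had a log2 ratio of -0.37, Gipr of -0.62 and Chrm3 of -0.44. All of these were still at least 20% lower, as were 4.11% of all genes, while Ffar1, Adra2a and Gcgr were at -0.04, -0.04 and -0.03. In SCD the same change moved the share of lower calls from 85.8% to 44.3%, and Ffar1, Adra2a and Gcgr turned to 0.03, 0.03 and 0.02. Glp1r was then at -0.09 (-0.13 to -0.06), Gipr at -0.08 (-0.19 to 0.03) and Chrm3 at -0.12 (-0.24 to 0.01) in SCD. Insulin cells of HH HFD were also the shallowest, with a median of 24196 UMIs against 29859 in WT HFD. Thinned to 3000 UMIs each, they gave -0.51 for Glp1r, -0.56 for Gipr and -0.75 for Chrm3. WT HFD had kept the smallest share of its barcodes, and with a looser filter on cells the values were -0.51 for Glp1r, -0.78 for Gipr and -0.63 for Chrm3.

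**Figure D3:**
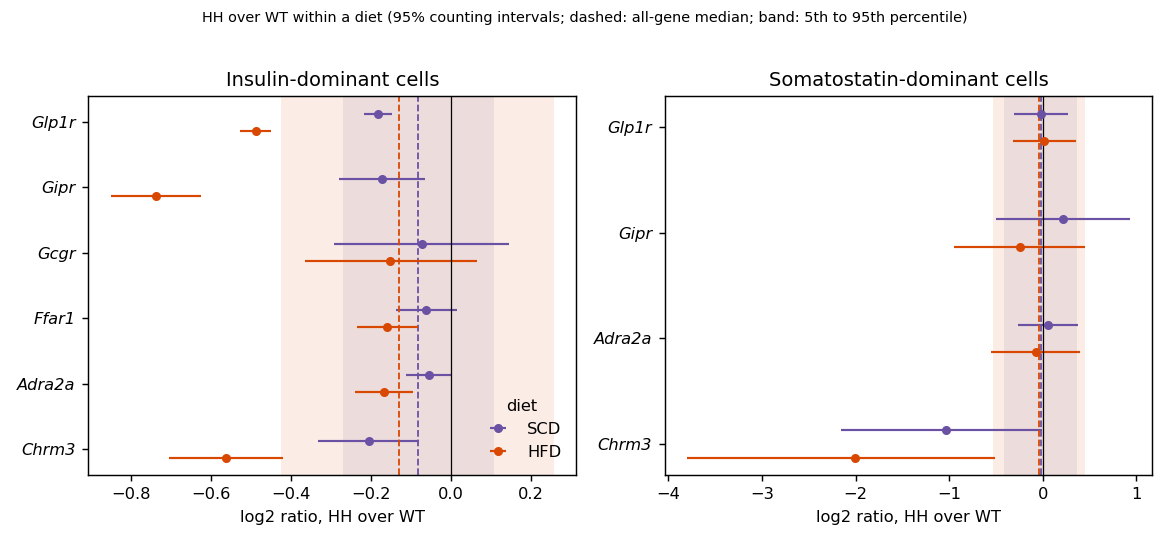
Log2 ratio of HH over WT for each receptor in insulin cells (left) and for 4 receptors in somatostatin cells (right), purple for SCD and orange for HFD, with 95% counting intervals; dashed lines are medians of all genes and bands span their 5th to 95th percentile. In insulin cells on HFD, Gipr (-0.74), Chrm3 (-0.56) and Glp1r (-0.49) lay outside the band, whereas Glp1r in somatostatin cells lay at -0.02 and 0.02.

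Outside the insulin cells the counts were much lower, and no receptor at 10 CPM or more had an interval clear of 0 between the genotypes. In somatostatin cells, the other class with Glp1r above carried RNA, the log2 ratio of HH over WT was -0.02 (-0.31 to 0.27) in SCD and 0.02 (-0.31 to 0.35) in HFD. The HFD interval there does not reach -0.49, the value of insulin cells. Gipr had log2 ratios of 0.07 (-0.48 to 0.62) in glucagon and -0.24 (-0.94 to 0.45) in somatostatin cells on HFD. Ffar1 in glucagon cells had log2 ratios of 0.00 (-0.61 to 0.61) in SCD and 0.08 (-0.31 to 0.47) in HFD. Chrm3 in somatostatin cells had 27 UMIs in WT SCD and 12 in HH SCD, then 17 in WT HFD and 5 in HH HFD. These few counts gave log2 ratios of -1.04 (-2.15 to -0.01) and -2.01 (-3.80 to -0.51), below 10 CPM throughout. In PP cells the Chrm3 ratios were 0.11 (-0.57 to 0.81) and -0.21 (-0.87 to 0.46).

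The second comparison set HFD at 16 weeks against SCD at 12 weeks within a genotype. Adra2a fell in insulin cells of both genotypes, by 0.45 on the log2 scale in WT (95.4 to 69.6 CPM, interval of the log2 ratio -0.53 to -0.38) and by 0.57 in HH (91.8 to 62.0 CPM, -0.63 to -0.51). It also fell in somatostatin cells, from 49.1 to 36.4 CPM in WT (log2 ratio -0.43, -0.85 to -0.03) and from 51.1 to 34.6 in HH (-0.56, -0.97 to -0.17). Levels at least 20% lower on HFD were seen for 13.1% of genes in WT and 17.9% in HH insulin cells, and for 14.2% and 15.1% in somatostatin cells. In these 4 sets Adra2a stood between the 5.82nd and the 9.13th percentile.

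Ffar1 rose with HFD in glucagon and PP cells. In glucagon cells it went from 9.42 to 22.9 CPM in WT, from 47 to 104 UMIs (2.43-fold, log2 ratio 1.28, 0.77 to 1.81). In HH it went from 9.42 to 24.1 CPM, from 49 to 120 UMIs (2.56-fold, 1.36, 0.87 to 1.87). Of all genes in glucagon cells, 12.2% in WT and 12.8% in HH were at least 25% higher on HFD, and Ffar1 stood at the 99.6th and 99.7th percentile. In PP cells the log2 ratios were 0.95 (0.06 to 1.86) and 0.75 (0.06 to 1.46), where 35.3% and 25.1% of genes were called higher. In insulin cells Ffar1 was 0.28 higher in WT (0.20 to 0.36) and 0.18 in HH (0.11 to 0.25), short of a call.

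Between the diets, the incretin receptors had ratios of opposite sign in the insulin cells of WT and HH, a difference that could not be tested over samples with 1 library per group. Glp1r had a log2 ratio of HFD over SCD of 0.07 (0.03 to 0.10) in WT and -0.24 (-0.27 to -0.20) in HH. With the looser filter on cells the WT value was 0.03 (-0.00 to 0.06). Gipr had 0.28 (0.17 to 0.39) in WT and -0.29 (-0.40 to -0.18) in HH. In cells with a Mafa UMI and no Gc, Aldh1a3 or Serpina7 UMI, a selection described further on, Glp1r had 0.06 (0.01 to 0.12) in WT and 0.00 (-0.05 to 0.06) in HH, and Gipr 0.32 (0.16 to 0.47) in WT and -0.02 (-0.19 to 0.15) in HH. The HH values were then within counting error of 0, while Gipr stayed the higher on HFD in WT. Chrm3 was level in WT (0.00, -0.14 to 0.14) and fell 1.28-fold in HH (-0.36, -0.49 to -0.23). Gcgr was 0.27 higher in WT (0.04 to 0.51) and 0.20 in HH (-0.01 to 0.40). The receptors called lower on HFD were thus 1 in WT, Adra2a, and 2 in HH, Adra2a and Chrm3, where 13.1% and 17.9% of all genes were. With size factors Chrm3 in HH was at -0.30, short of a call. These ratios use the same 4 libraries as those of HH over WT. In somatostatin cells Gipr had a log2 ratio of 0.94 (0.23 to 1.65) in WT, from 34 and 37 UMIs, and of 0.48 (-0.23 to 1.18) in HH, from 36 and 37. Levels at least 25% higher on HFD were seen there for 21.1% of genes in WT and 21.3% in HH.

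**Figure D4:**
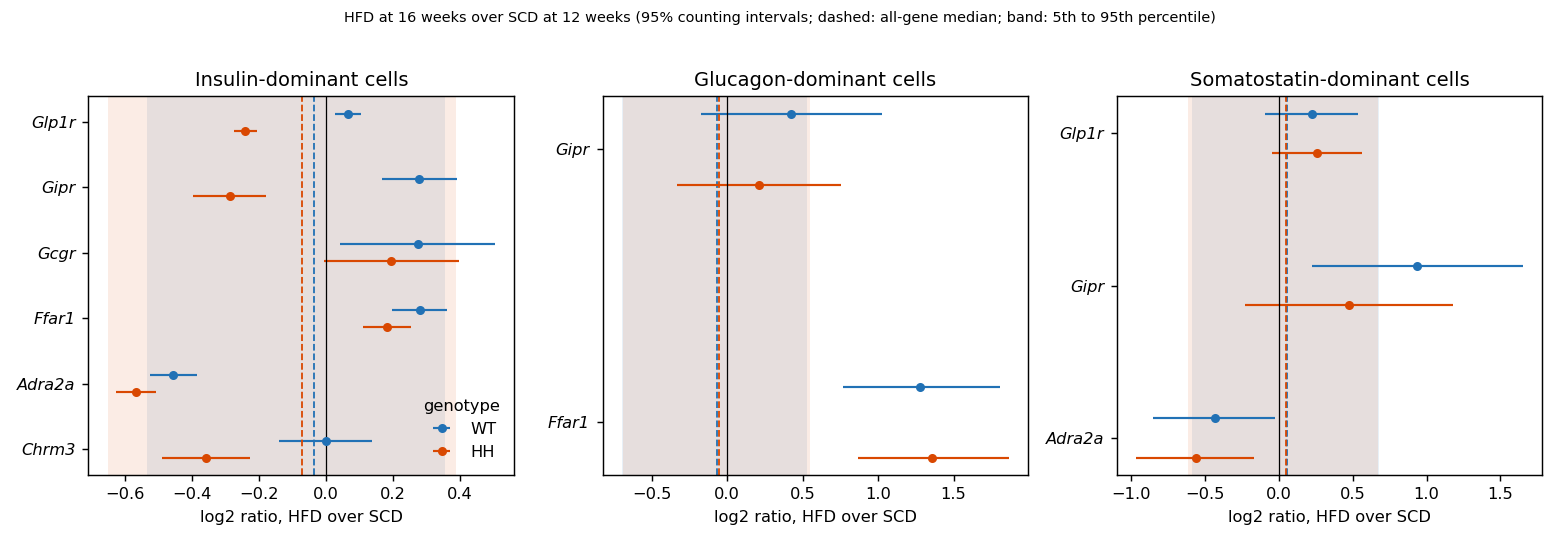
Log2 ratio of HFD at 16 weeks over SCD at 12 weeks in insulin, glucagon and somatostatin cells, blue for WT and orange for HH, with 95% counting intervals, all-gene medians (dashed) and bands from the 5th to the 95th percentile of all genes. Ffar1 in glucagon cells lay at 1.28 and 1.36, beyond the bands, and Glp1r and Gipr in insulin cells lay on opposite sides of 0 in the 2 genotypes.

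Over single insulin cells, Glp1r was present almost everywhere, and its counts varied more than sampling gives. At full depth 98.5%, 98.0%, 99.0% and 96.4% of insulin cells had a Glp1r UMI. With each cell thinned to 3000 UMIs, the shares were 53.1% (50.9 to 55.3), 49.9% (47.7 to 52.1), 54.7% (51.8 to 57.6) and 42.0% (40.2 to 43.8). Endothelial cells had 6.25%, 1.19%, 0% and 0.52% at that depth, where 0 of 144 cells allows a share of cells with a UMI of up to 2.08%, taking 3 cells as the limit. Their median depth was 5758 to 7127 UMIs against 24196 to 29859 in insulin cells.

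The other receptors had smaller shares at 3000 UMIs. Gipr was found in 8.26%, 6.28%, 8.96% and 6.38% of insulin cells and Chrm3 in 5.54%, 5.63%, 7.11% and 4.15%. Adra2a was found in 24.5%, 22.7%, 18.2% and 16.7%, Ffar1 in 14.3%, 14.1%, 16.8% and 14.8%, and Gcgr in 1.93%, 1.86%, 2.63% and 2.37%. In endothelial cells at that depth, Chrm3 was found in 2.68%, 2.38%, 3.47% and 0.52% and Adra2a in 3.57%, 1.19%, 1.39% and 0.52%. Gipr reached at most 0.52% there, and Ffar1 and Gcgr were not found. Thinned to 5000 UMIs instead, Gipr was found in 13.4%, 13.1%, 16.5% and 9.65% of insulin cells. At 3000 UMIs, cells with no UMI of any of the 6 were 26.5%, 29.8%, 26.4% and 36.5% of insulin cells. At full depth the median number of the 6 receptors seen in a cell was 4 in WT SCD, HH SCD and WT HFD and 3 in HH HFD, the shallowest, and at 3000 UMIs it was 1 in all 4.

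The lower Glp1r of HH HFD appeared over single cells as a lower mean, with more cells at 0 and fewer at high counts. Thinned to 10000 UMIs, the median was 2 Glp1r UMIs per insulin cell in all 4 libraries, the upper quartile was 4, 3, 4 and 3, the 90th percentile 5, 5, 5 and 4, and the mean 2.71, 2.36, 2.76 and 2.04. Cells with none were 10.5%, 12.9%, 10.1% and 17.6%, where a Poisson spread with those means gives 6.64%, 9.47%, 6.31% and 12.9%. The variance over the mean (Fano factor, 1 for pure sampling) of Glp1r lay between 1.35 and 1.52. For Adra2a it was 1.44 and 1.47 in the WT and HH SCD libraries and 1.22 and 1.10 in WT and HH HFD, while its mean fell from 0.97 and 0.96 to 0.72 and 0.64. The other 4 receptors had Fano factors from 0.99 to 1.11, at lower means of 0.07 to 0.66. The factor was not adjusted for the mean, so it does not rank receptors or libraries by spread over cells.

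**Figure D5:**
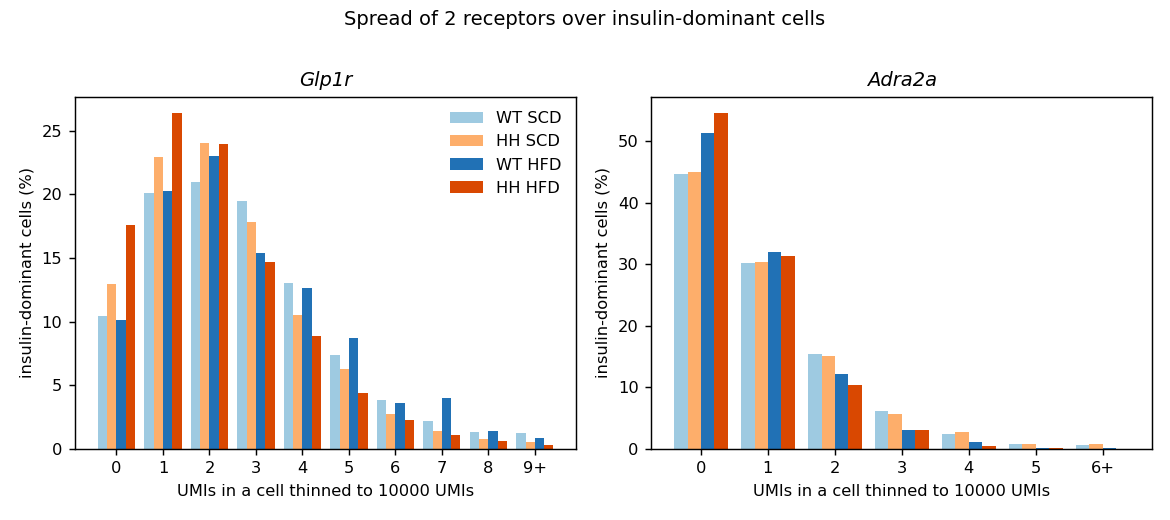
Share of insulin cells (percent) with a given number of Glp1r (left) or Adra2a (right) UMIs after each cell was thinned to 10000 UMIs, 1 bar per library. The bars of HH HFD were shifted to lower Glp1r counts with 17.6% of cells at 0, and both HFD libraries had more cells without Adra2a than the SCD libraries.

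Insulin cells that met a rule on dedifferentiation genes were most frequent in HH HFD, and Glp1r was lower in them than in the remaining cells in 4 of 4 libraries, with an interval clear of 0 in 3. Mafa encodes an activator of mature beta cell genes, and Gc, Aldh1a3 and Serpina7 rise in dedifferentiating beta cells. Cells without a Mafa UMI but with 1 or more UMIs of the other 3 genes, after thinning to 3000 UMIs, made up 3.46%, 4.17%, 7.81% and 23.7% of insulin cells. The rule was met by 0 to 1.05% of endothelial cells, but also by 28.2 to 47.7% of the glucagon, somatostatin and PP cells, so it does not by itself mark a state. RNA of glucagon cells, taken from the Gcg UMIs in insulin cells, would give at most 1.04% of the UMIs of any of the 3 genes there. Gcg in HH HFD was 423 CPM in the insulin cells that met the rule and 719 in the others. In HH HFD these 679 cells held 161 CPM of Glp1r against 209 in the remaining 2191 (log2 ratio -0.38, -0.44 to -0.32). Gipr was 16.9 against 21.3 CPM (-0.33, -0.52 to -0.15), and Ffar1 had a log2 ratio of -0.19 (-0.29 to -0.08). Adra2a and Chrm3 had ratios of -0.03 (-0.13 to 0.07) and 0.01 (-0.20 to 0.22). In WT SCD, HH SCD and WT HFD the Glp1r ratios were -0.20 (-0.34 to -0.06), -0.12 (-0.26 to 0.01) and -0.14 (-0.25 to -0.03). The Gipr ratios there were -0.32 (-0.80 to 0.13), -0.55 (-1.05 to -0.09) and -0.04 (-0.37 to 0.28). Gcgr had ratios of 0.90 (0.20 to 1.52), 0.06 (-0.80 to 0.80), -0.68 (-1.57 to 0.10) and -0.27 (-0.58 to 0.03) in the 4 libraries, the first from 22 UMIs in the cells that met the rule. Whether these ratios differed between libraries was not tested.

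Without the cells that met this rule, HH over WT on HFD was -0.41 (-0.45 to -0.37) for Glp1r, -0.66 (-0.78 to -0.54) for Gipr and -0.57 (-0.72 to -0.41) for Chrm3. The 3 receptors were thus still at least 20% lower, as were 10.1% of all genes, whose median was -0.12. Within the cells that met the rule, Glp1r had -0.65 (-0.77 to -0.53) and Gipr -0.96 (-1.30 to -0.60). Among cells with a Mafa UMI and none of the 3 genes, Glp1r was 288 CPM in WT HFD and 238 in HH HFD (-0.27), Gipr 34.9 and 25.7 CPM (-0.44) and Chrm3 20.0 and 14.3 CPM (-0.49), and Glp1r alone of the 3 was then short of a call. Among those cells 8.17% of all genes were called lower, with a median of -0.08. Both selections of cells were chosen after the data had been seen.

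The genes that carry the receptors' signals were compared between the genotypes in the same way. Of 128 genes for other receptors, ligands, G proteins, cyclic AMP, phospholipase C and desensitisation, 47 had 10 CPM or more in insulin cells in SCD. Of these, 2 were called lower in HH and 1 higher, with a median log2 ratio of -0.08. The lower genes were Sik2, a kinase that restrains CREB coactivators (-0.33), and Prkd1, protein kinase D1 (-0.59). The higher was Gcg, the gene for glucagon and GLP-1 (420 and 601 CPM, 0.52). Gcg shares in endothelial cells, given below, were above those in insulin cells. Over all genes 2.09% were lower and 0.346% higher.

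In HFD 44 of the 128 were tested, 8 were lower and 3 higher, with a median of -0.14, where 13.2% of all genes were lower and 3.22% higher. The Gq and phospholipase C list had 4 lower of 9 tested. These were Prkca (-0.61), Prkcb (-0.52) and Prkce (-0.37), which encode protein kinase C isoforms, and Gna11 (-0.34), a G-protein alpha subunit of the Gq class. Of 13 cyclic AMP genes tested, Prkar1b, a regulatory subunit of protein kinase A, was lower (-0.37) and Crem, a cyclic AMP-responsive transcription factor, higher (0.34). Gnai2, an alpha subunit of the Gi class, fell from 195 to 147 CPM (-0.40), the gamma subunit Gng4 had -0.39 and the receptor kinase Grk5 -0.37. Ramp1, a receptor activity-modifying protein, was 0.38 higher. With size factors the counts were 2 lower (Prkca and Prkcb) and 6 higher in HFD, so these calls depended on the scaling. Over all genes 4.11% were then lower and 7.45% higher.

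Gcg in insulin cells was 270 CPM in WT HFD and 642 in HH HFD (log2 interval 1.22 to 1.28). The 6 alpha cell markers together, Gcg included, summed to 335 to 700 CPM in insulin cells over the libraries, and only 2 of them were at 10 CPM or more in each. The median Gcg share of a cell's UMIs was 0.030%, 0.034%, 0.025% and 0.040% in insulin cells. In endothelial cells it was higher, at 0.053%, 0.056%, 0.063% and 0.071%. The part of RNA from glucagon cells in the Gcg differences between HH and WT was not tested in either diet. Of 41 other secretagogue receptors, 4 reached 10 CPM in insulin cells in each diet, and none was called in either direction. With size factors 2 of them were called higher in HH on HFD, Ffar2 (from 0.31 to 0.43) and P2ry1 (from 0.27 to 0.39). So were 7.45% of all genes with that scaling. These 4, named after their values were seen, were the receptors for short-chain fatty acids (Ffar2), VIP (Vipr1), galanin (Galr1) and ADP (P2ry1).

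The genes with the pattern most like each receptor were taken over the 16 sums of 4 hormone classes and 4 libraries, by Pearson's r of log2(CPM + 1) among 9559 genes. Points of a library share its depth and handling, so r is a description. Glp1r was most like St8sia5 (0.99), Fkbp1b (0.98) and Vstm2l (0.98), and Adra2a most like Ppp1r1a, Cntn1 and Zdhhc2 (each 0.98). Ffar1 was most like Glrx (0.97), Sec16b (0.95) and Robo1 (0.94), and Chrm3 most like Limch1 (0.95), Synpr (0.90) and Dnajb9 (0.89). Gipr was most like Uggt1 (0.93), 2410021H03Rik (0.92) and Syvn1 (0.92), and Gcgr most like Cyb5b (0.98), Itpkb (0.97) and Grip1 (0.97). Among the receptors, Glp1r had an r of 0.98 with Adra2a, 0.96 with Gcgr, 0.78 with Gipr, 0.43 with Chrm3 and 0.20 with Ffar1.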

How the data were processed

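Islet cells were profiled with the 10x Genomics 3′ kit (v3.1), and the authors ran Cell Ranger 6.0 on mm10, per the labels and methods. The deposited values are raw UMI counts per gene and barcode. Their correction for ambient RNA and their doublet calls are not in the deposited counts. Cells with under 10% mitochondrial UMIs, 3000 to 50000 UMIs and 2000 to 5000 genes were kept, and the highest Scrublet scores (scanpy 1.11.5, 0.8% per 1000 cells, 348 cells) were removed. A class needed 5% of UMIs from its hormone, with the top non-endocrine marker list under 0.3%, and 233 cells stayed unassigned. An endothelial, stromal, ductal or other non-endocrine class needed 0.5% of UMIs from its marker list, 80% of all such UMIs and no hormone at 5%. Counts were summed per class and library and scaled to CPM.

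With 1 library per group no test between groups was run, and values carry exact Poisson, Clopper-Pearson or conditional binomial 95% intervals, which cover counting error only. A call was a level at least 20% lower or 25% higher (2-fold between classes), for genes averaging at least 10 CPM over both sums, and 0 UMIs were replaced by a floor of 3 in a fold. The expected carried UMIs of a receptor were the insulin UMIs of a class times the ratio of receptor to insulin UMIs in insulin cells of that library. Shares used cells thinned to 3000 UMIs. The ratios were tested on simulated data. The members and lists were chosen with earlier results of these data known. Named genes were the 6 receptors, up to 5 genes of each list past that limit with an interval clear of 0, and the 3 genes most like each receptor. Alternatives were other cell filters, scalings, weights, hormone minimums and depths. Python 3.11.15, numpy 2.4.6, scipy 1.17.1 and pandas 2.3.3 were used.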

Additional observations from a re-analysis of the deposited data

Results flagged for a closer look

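The incretin receptors in insulin cells stood out because their difference between HFD at 16 weeks and SCD at 12 weeks had opposite signs in the 2 genotypes. The log2 ratio of Glp1r was 0.067 in WT and -0.24 in HH, and that of Gipr was 0.28 in WT and -0.29 in HH. Each value is a ratio of 2 libraries, and the difference between genotypes was not tested. In insulin cells with a Mafa UMI and no Gc, Aldh1a3 or Serpina7 UMI, the WT and HH values were 0.06 and 0.00 for Glp1r and 0.32 and -0.02 for Gipr.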

How the results depend on the processing

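No pairing by replicate number was possible because each group was 1 library and all carry the same number, and for the same reason no replicate could be left out. Pairing WT with HH by diet was not tested. The median log2 ratio of the 6 receptors, HH over WT, ranged from -0.15 to -0.03 in SCD and from -0.35 to -0.20 in HFD over the alternatives, with the same sign in each. The HFD median of -0.33 became -0.20 with size factors and -0.23 in cells with a Mafa UMI and no dedifferentiation UMI. The count of receptors called lower in HFD was 3, and 2 in those Mafa cells, where the shares of all genes were 13.2% and 8.17%. In SCD the count was 0, and 1 (Gipr) with cells thinned to 3000 UMIs, where the shares of all genes were 2.09% and 11.3%. For HFD over SCD in WT, the 0 receptors at least 25% higher became 1 with the looser cell filter and without cells that met the dedifferentiation rule, in both cases Gcgr, which was under the 10 CPM a call requires, and 1 in Mafa cells, Ffar1. In HH, the 2 lower became 1 with size factors and in Mafa cells, where 1 (Ffar1) was higher and Glp1r turned from -0.24 to 0.0029. Over all genes in Mafa cells, 7.27% were higher on HFD in WT and 6.49% in HH. In HH 13.5% of genes were lower in Mafa cells, and 13.8% with size factors. For the signalling genes, size factors gave 1 lower and 2 higher in SCD and 2 lower and 6 higher in HFD. Over all genes they gave 0.664% lower and 0.834% higher in SCD, and 4.11% and 7.45% in HFD. A minimum of 50 CPM gave 0 lower in SCD and 2 lower and 1 higher in HFD, since fewer genes were tested. The causes of the other changes were not tested. The selections by dedifferentiation genes, and size factors for HFD over SCD, were chosen after seeing the data. Gcgr stayed under the 10 CPM minimum in insulin cells. Gipr in HH HFD missed the 2-fold limit over glucagon cells, but passed it without hormone and mitochondrial genes (57.9 against 21.9 CPM). Chrm3 and Ffar1 in somatostatin cells had at most 27 UMIs in a library, which left their intervals wide.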
